A study of Rattus norvegicus with 24 samples.

Results

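Ozone and filtered air were compared in the serum miRNAs of rats fed the normal diet. The members were chosen from the diet and exposure labels, which gave 12 of the 24 samples described: 6 rats in ozone and 6 in air, with every one of the 12 present in the deposited count table. All were male Wistar Kyoto (WKY) rats, an inbred strain, which received normal facility chow from 4 weeks of age for 8 weeks. They then breathed either filtered air or ozone at 0.8 ppm (0.8045 ppm as measured) for 4 h per day on 2 consecutive days. The series' design text gives the rats' age only as 4 weeks, whereas the treatment protocol gives that as the age when the diet began. Serum came from the abdominal aorta and holds no cells. The labels name no transgene or drug. The other 12 samples were the same 2 exposures on a diet with 6% fish oil by weight; 11 of them have a column in the table, and they enter below only where the ozone difference is set beside that on the normal diet. Animal numbers lie in separate blocks for each group, so that they pair no rats and a batch following those blocks and the exposure cannot be told apart. The rats were housed in pairs, and which rats shared a cage is not given in the labels, so the p-values measure the spread between single rats and take no account of cages.

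A miRNA is a short RNA that guides Argonaute proteins to messenger RNAs, chiefly through the seed, bases 2 to 8 of the mature strand, and lowers the output of those messages. miRNAs leave cells in vesicles, in lipoproteins, bound to Argonaute or through cell damage, and stay stable in serum, where many can be traced to a tissue that makes them in quantity. Ozone is an oxidant gas that reacts in the lining fluid of the airways, inflames the lung and also provokes a stress hormone and metabolic response in other organs. A serum level does not separate fewer releasing cells from less RNA released per cell, which cannot be told apart here.

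The mature sequences of the miRNAs with the lowest p-values and of the let-7 family are shown because the values below turn on them. They are from RefSeq (rat assembly GRCr8), in which 125 of the 136 miRNAs tested had exactly 1 mature sequence. They are written 5′ to 3′ with the seed in capitals. miR-30e-3p was not among those 125 and is not shown.
miR-22-3p: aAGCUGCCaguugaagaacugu
miR-375-3p: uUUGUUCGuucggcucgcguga
let-7a-5p: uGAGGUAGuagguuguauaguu
let-7b-5p: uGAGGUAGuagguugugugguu
let-7c-5p: uGAGGUAGuagguuguaugguu
let-7d-5p: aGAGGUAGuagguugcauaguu
let-7e-5p: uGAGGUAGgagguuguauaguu
let-7f-5p: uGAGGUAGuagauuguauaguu
let-7g-5p: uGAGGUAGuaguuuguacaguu
let-7i-5p: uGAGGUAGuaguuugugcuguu
miR-98-5p: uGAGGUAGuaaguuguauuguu
miR-22-3p and miR-375-3p share no seed with each other or with let-7, whose 9 members share the seed GAGGUAG. Single members of that family differ by as little as 1 base, for instance let-7a-5p from let-7c-5p, let-7e-5p and let-7f-5p, so their reads can be confused and each single value is uncertain. In GRCr8 the mature miR-22-3p lies at chr10:60805387-60805408 on the plus strand, within no other gene of the RefSeq table. The mature miR-375-3p lies at chr9:83906591-83906612 on the minus strand, within the bounds of Cryba2, a crystallin gene. Of 2 copies of let-7f-5p 1 lies on chromosome X within the bounds of Huwe1, a ubiquitin ligase gene.

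No miRNA differed between ozone and air on the normal diet past the adjusted threshold of 0.05 in edgeR's quasi-likelihood test. The count was 0 of 136 tested (0% called), with 4 at an unadjusted p below 0.05 (2.94%), and the lowest adjusted p was 0.184. The 4 were miR-22-3p, which was lower in ozone, and miR-375-3p, let-7f-5p and miR-30e-3p, which were higher. In none of the 136 (0%) were the 6 ozone rats all on one side of the 6 air rats. DESeq2 called 1, miR-22-3p, with an adjusted p of 0.00611, and limma's voom test called 0, with 5 at an unadjusted p below 0.05. Ozone exceeded air for 62 of the 136 (45.6%) and was below it for 74 (54.4%), with a median log2 difference of -0.04, quartiles of -0.21 and 0.18 and a range of -0.94 to 1.82. These directions are relative to the bulk of the miRNAs, since TMM scaling (trimmed mean of M values, which assumes that the bulk does not shift) was applied to the counts; levels below are CPM, the TMM-scaled counts brought to a common library total. When each library was scaled instead to the read total implied by the deposited RPM table, the median log2 difference was 0.24 and 83.1% of the miRNAs were higher in ozone, with 0 called and 3 at an unadjusted p below 0.05 in edgeR.

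**Figure D1:**
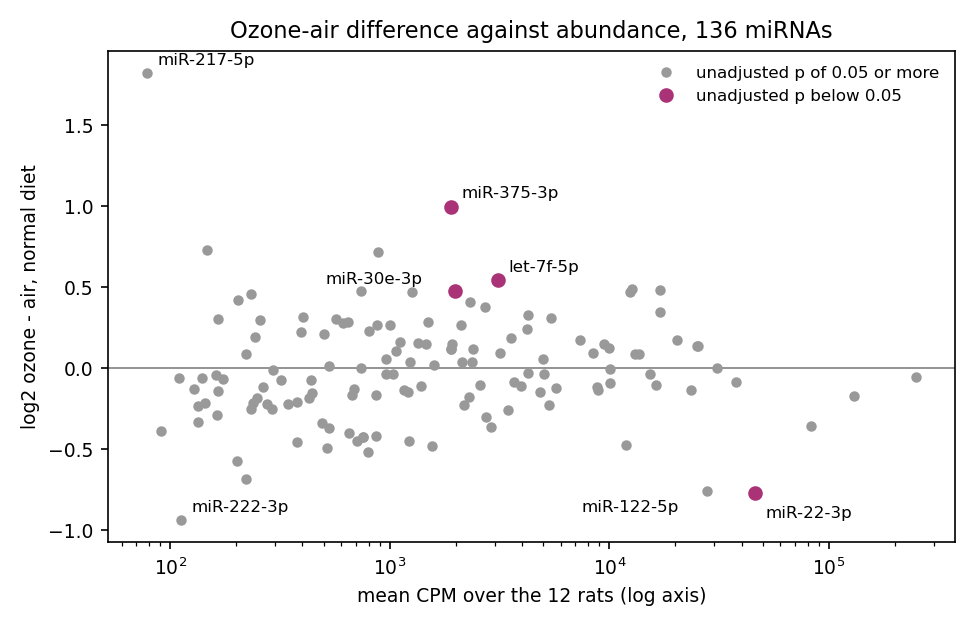
Each of the 136 tested miRNAs is a point, with its mean level over the 12 rats in CPM (log axis) across and the log2 difference of ozone less air on the normal diet upward. The 4 coloured points have an unadjusted p below 0.05, and only miR-217-5p, at low abundance, has an estimate beyond 2-fold.

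The estimates bounded most differences rather loosely. The median standard error (SE) of a log2 difference was 0.31. The 95% interval stayed within 2-fold in both directions for 82 miRNAs and within 1.5-fold for 18, while for the other 54 it reached 2-fold on at least one side. The estimate itself was beyond 2-fold for 1 miRNA and beyond 1.5-fold for 8. The SD of log2 CPM among the 6 rats had a median of 0.41 in air and 0.48 in ozone and was larger in ozone for 85 of 136.

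miR-22-3p, a broadly expressed miRNA that is plentiful in heart and skeletal muscle and in platelets, had the lowest p. In air it lay between 37135 and 84172 CPM with a median of 53967. In ozone it lay between 25803 and 43268 CPM with a median of 33960. All 6 ozone rats were below the air median and 5 of them were below the lowest air rat, but the highest ozone rat lay within the range of air. Normal air replicates 5 and 6 were the highest, at 84172 and 80264 CPM. The log2 difference was -0.77 (SE 0.23, 95% interval -1.24 to -0.30), a 1.70-fold lower level, with an unadjusted p of 0.00209 and an adjusted p of 0.184 in edgeR. Its adjusted p lay between 0.00611 and 0.960 over the alternative settings. It passed the threshold in DESeq2 and with only miRNAs of a mean count of at least 50 (edgeR adjusted p = 0.0456). It also passed without fish oil ozone replicate 5 (edgeR adjusted p = 0.0484). That library lies outside the comparison but shares in the TMM scaling and in the estimate of the spread. Without it the median log2 difference over all 136 miRNAs was -0.11, against -0.04 with all libraries. Without normal air replicate 5 the log2 difference of miR-22-3p was -0.63, with an adjusted p of 0.725 in edgeR. With the implied read total it was -0.42 (adjusted p = 0.947 in edgeR). This miRNA was the fourth most abundant, and it took 5.35% of the counts in air and 3.39% in ozone. Normal air replicates 5 and 6 were also the highest in air for miR-3557-5p, miR-122-5p, miR-192-5p and miR-101b-3p, though not for miR-194-5p. The lower levels of these miRNAs in ozone are thus not independent observations.

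**Figure D2:**
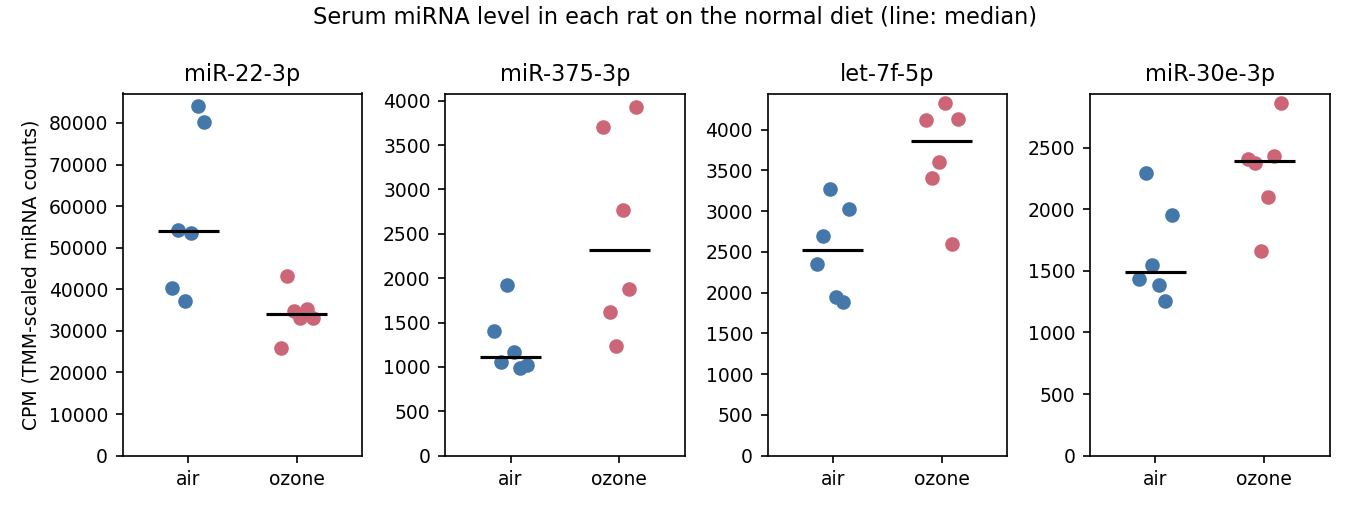
Levels of the 4 miRNAs with an unadjusted p below 0.05, in TMM-scaled CPM on linear axes from 0, with 1 point per rat and a line at the median of each group of 6. The ozone rats lie mostly below the air rats for miR-22-3p and mostly above them for the other 3, and the groups overlap in every panel.

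miR-375-3p, which is made in pancreatic islets and other endocrine and neuroendocrine cells and restrains insulin secretion, had the next lowest p. It lay between 984 and 1927 CPM in air, with a median of 1112, and between 1235 and 3934 CPM in ozone, with a median of 2322. Every ozone rat was above the air median and 3 were above the highest air rat, while the lowest ozone rat lay inside the air range. The spread was wider in ozone, with an SD of log2 CPM of 0.67 against 0.36 in air. The log2 difference was 0.998 (SE 0.31, 95% interval 0.37 to 1.63), a 2.00-fold higher level, with an unadjusted p of 0.00271 and an adjusted p of 0.184 in edgeR. With the implied read total it was 1.11, and leaving out 1 library in turn gave 0.79 to 1.16. No alternative setting of the comparison on the normal diet brought it past the threshold, with adjusted p-values between 0.0744 and 0.971.

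The ozone differences on the 2 diets come from 1 fit with common TMM scaling and estimate of the spread, but share no library. The rats on fish oil thus gave a separate estimate for miR-375-3p. There it lay between 523 and 1606 CPM in the 6 air rats, with a median of 1023, and between 918 and 2313 CPM in the 5 ozone rats, with a median of 2038. The groups overlapped, and 4 of the 5 ozone rats were above the air median. The log2 difference on fish oil was 0.81 (SE 0.33) with an unadjusted p of 0.0202 and an adjusted p of 0.652 in edgeR. The difference between the diets was 0.19 (SE 0.45, adjusted p = 0.951 in edgeR). Averaged over both diets, an analysis chosen after seeing the data, miR-375-3p rose in ozone by 0.90 on the log2 scale (SE 0.23) with an adjusted p of 0.0467 in edgeR, and it was the only miRNA called (0.735% of 136). That call was kept in edgeR in 6 of 23 repeats that each left out 1 library: normal air replicate 3, normal ozone replicates 3 and 5, fish oil air replicates 4 and 6, and fish oil ozone replicate 6. It was lost without any one of the other 17 libraries, with adjusted p-values up to 0.239 and log2 differences over all 23 repeats of 0.80 to 0.999. Among 11 other settings the call was lost in 8. The adjusted p was 0.0532 in edgeR without the 5 most abundant miRNAs in the library size, 0.0645 with DESeq2 size factors, 0.114 with a red cell ratio as covariate, 0.159 with total count scaling and 0.673 with the implied read total. It was 0.131 in limma's voom test and 0.494 and 0.936 in limma on RPM with pseudocounts of 1 and 10. The call was kept in 3 settings, at adjusted p-values of 0.0171 without the low-count filter and 0.0482 with a mean count of at least 50 in edgeR, and 0.0185 in DESeq2.

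The let-7 family represses genes of growth and the cell cycle and is held down by Lin28 in immature cells. Of its 9 members, 8 were higher in ozone on the normal diet, against 45.6% of all miRNAs tested, with a median log2 difference of 0.35 against -0.04 over all miRNAs. The members ranged from -0.04 for let-7e-5p to 0.54 for let-7f-5p. With the implied read total all 9 were higher, against 83.1% of all 136 miRNAs, with a median of 0.47 against 0.24. Summed over the family, the level lay between 45688 and 65060 CPM in air (median 55892) and between 56857 and 88640 CPM in ozone (median 68754). The summed levels overlapped. None of the 9 was called, and let-7f-5p was the only one with an unadjusted p below 0.05. The members' values cannot be taken as independent, since their sequences are nearly identical and some lie close together on a chromosome. How far either ties the values together was not tested.

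let-7f-5p lay between 1888 and 3277 CPM in air, with a median of 2524, and between 2603 and 4322 CPM in ozone, with a median of 3862. Of the 6 ozone rats 5 were above the highest air rat, and the sixth, replicate 5, was just above the air median. The log2 difference was 0.54 (SE 0.24) with an unadjusted p of 0.0302 and an adjusted p of 0.935 in edgeR. let-7c-5p, the second most plentiful of the 9, lay at 10367 to 17218 CPM in air and 14307 to 28120 CPM in ozone, with medians of 13890 and 18072. All 6 ozone rats were above its air median and 4 were above its highest air rat, and its log2 difference was 0.48 (SE 0.26). let-7b-5p, which neighbours let-7c-5p on chromosome 7, had medians of 10730 and 13848 CPM, with 3 ozone rats above the highest air rat, the other 3 below the air median and a log2 difference of 0.49 (SE 0.27). let-7i-5p, the most plentiful, had medians of 15423 and 18711 CPM, with 5 ozone rats above the highest air rat and a log2 difference of 0.35 (SE 0.21). let-7a-5p had medians of 2020 and 2622 CPM and a log2 difference of 0.41 (SE 0.26). The table also lists miR-3596a, whose RefSeq sequence is the reverse complement of let-7a-5p over 22 bases, with a mean count of 46.3 against 144 for let-7a-5p, so the strand of part of these reads is uncertain. miR-98-5p differed by 0.31 (SE 0.33), let-7d-5p by 0.12 (SE 0.22) and let-7g-5p by 0.10 (SE 0.20) on the log2 scale, and let-7e-5p, at a mean count of 9.50, by -0.04 (SE 0.59).

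On fish oil 2 of the 9 let-7 members were higher in ozone, against 47.1% of all miRNAs tested there, with a median log2 difference of -0.10. let-7i-5p was the member whose ozone difference differed most between the diets, at 0.35 on the normal diet and -0.52 (SE 0.22) on fish oil. The difference of those differences was 0.87 (SE 0.30) with an unadjusted p of 0.00653 and an adjusted p of 0.459 in edgeR. For let-7f-5p it was 0.62 (SE 0.35, adjusted p = 0.926 in edgeR).

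**Figure D3:**
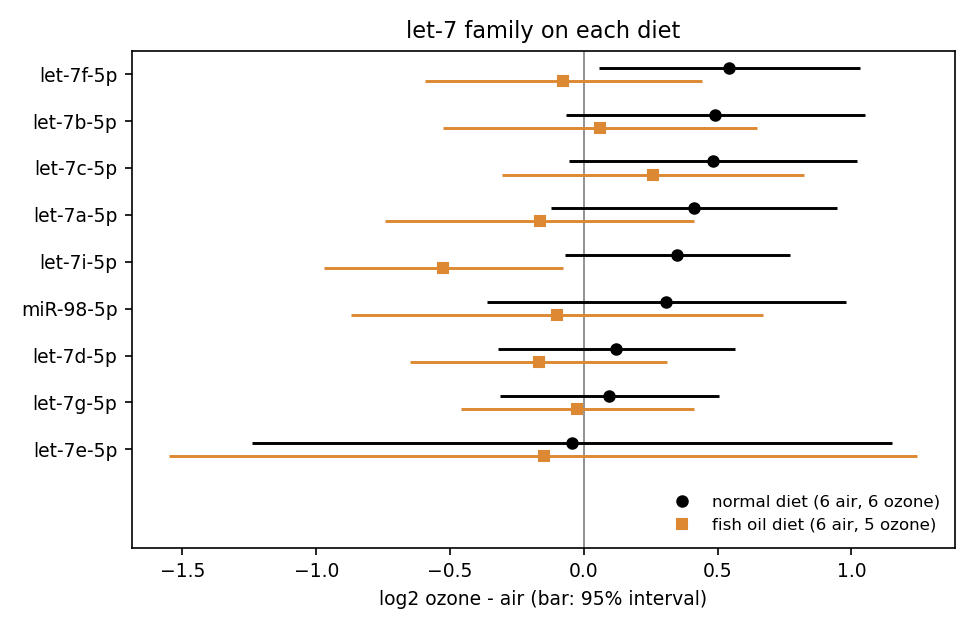
Log2 difference of ozone less air for the 9 let-7 members, on the normal diet (circles, 6 air and 6 ozone rats) and on fish oil (squares, 6 air and 5 ozone rats), with bars for the 95% intervals. On the normal diet 8 of the 9 estimates lie above 0 and on fish oil 2 do, and most intervals hold 0.

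miR-30e-3p, the strand opposite miR-30e-5p in one hairpin, lay between 1259 and 2290 CPM in air, with a median of 1489, and between 1663 and 2859 CPM in ozone, with a median of 2392. Of the ozone rats 4 were above the highest air rat and the groups overlapped. Its log2 difference was 0.48 (SE 0.23) with an unadjusted p of 0.0465 and an adjusted p of 0.935 in edgeR, and 0.29 (SE 0.25) on fish oil. The more plentiful arm, miR-30e-5p, differed by -0.03 (SE 0.22). miR-30a showed the same split of arms, with 0.47 (SE 0.30) for miR-30a-3p and -0.13 (SE 0.23) for miR-30a-5p; the difference between arms was not tested. miR-30a-3p and miR-30e-5p were set beside these arms after their values were seen. Over the 16 hairpins with both arms tested, the arms had the same sign in 8. Among 33 groups of miRNAs lying within 10000 bases of one another in the deposited rn5 positions, 15 had all members on one side of 0; those positions put miR-30e-3p on chromosome 5 from 143497764 to 143497786, without stating whether they count from 0 or from 1.

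The other miRNAs with the lowest p in the higher direction did not reach an unadjusted p of 0.05. miR-217-5p, a miRNA of the exocrine pancreas, had the largest estimate, but it rested on 0 to 4 counts per air library and 0 to 31 counts per ozone library, and 3 counts correspond to 28.5 to 91.4 CPM depending on the library. Its log2 difference of 1.82 had an SE of 1.06, and its medians of 30.9 CPM in air and 53.2 CPM in ozone were both under the upper end of that limit. Normal ozone replicate 5 held the 31 counts, and without it the log2 difference was 0.50. In limma on RPM with a pseudocount of 10 the difference was 0.21. The low-count filter used all 23 libraries, and miR-217-5p was higher on fish oil, with medians of 340 CPM in air and 592 CPM in ozone. Its place among the 136 thus rested largely on those rats, since its mean count was 4.83 in the 12 on the normal diet. On fish oil it differed by -0.16 (SE 0.78). miR-126a-5p, from the endothelial gene Egfl7, had medians of 10101 and 12402 CPM and differed by 0.47 (SE 0.28) on the normal diet and by 0.54 (SE 0.30) on fish oil. Normal ozone replicate 6 stood at 28465 CPM, and without it the difference on the normal diet was 0.16; without normal air replicate 4 or 6 it was 0.31 or 0.32. miR-342-3p, a lymphocyte miRNA within the bounds of Evl, had medians of 96.3 and 182 CPM and differed by 0.73 (SE 0.45). All 6 ozone rats were above the air median, but the air libraries held only 1 to 16 counts. Its lowest estimate over the alternative settings was 0.14, and on fish oil it differed by -0.22 (SE 0.48). miR-1b, which shares its seed with the striated muscle miRNA miR-1-3p and may share its reads, had medians of 526 and 737 CPM and differed by 0.72 (SE 0.44).

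Lower in ozone after miR-22-3p came a set whose groups also overlapped. miR-3557-5p lay between 7793 and 19943 CPM in air and between 6647 and 13906 CPM in ozone, with medians of 13886 and 9398 and a log2 difference of -0.47 (SE 0.25). Its RefSeq sequence is the reverse complement of miR-378a-3p over 21 bases, at a locus within Ppargc1b, and the table lists miR-378a-3p with a mean count of 0 in the 12 libraries, so which strand these reads came from is uncertain. miR-222-3p, which represses the cell cycle inhibitor p27 and is made from the same locus as miR-221-3p, had medians of 139 and 77.1 CPM at a mean count of 7.58 and differed by -0.94 (SE 0.58), whereas miR-221-3p differed by 0.10 (SE 0.22). Both arms of miR-140, a miRNA of cartilage hosted by Wwp2, were lower, with -0.49 (SE 0.30) for miR-140-5p and -0.42 (SE 0.29) for miR-140-3p. miR-24-2-5p, a minor strand of the miR-23a cluster, differed by -0.45 (SE 0.30), and all 6 of its ozone rats lay below the air median. miR-210-3p, the miRNA most directly induced by hypoxia, had medians of 943 and 600 CPM and differed by -0.42 (SE 0.31) on the normal diet and by -0.40 (SE 0.34) on fish oil. The table gives miR-3574 the same counts as miR-210-3p in every library, and their RefSeq sequences are reverse complements over all 22 bases, so they are one measurement.
miR-210-3p: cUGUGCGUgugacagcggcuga
miR-3574: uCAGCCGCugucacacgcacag

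**Figure D4:**
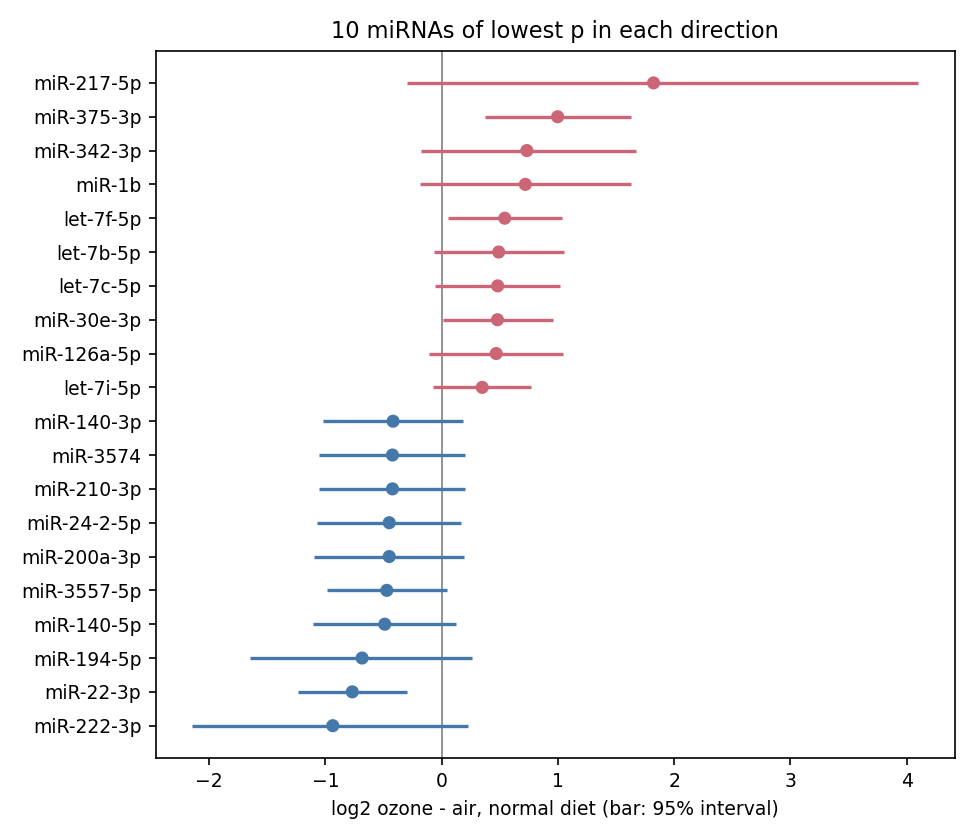
Log2 difference of ozone less air on the normal diet for the 10 miRNAs of lowest p in each direction, with bars for the 95% intervals. The intervals of miR-22-3p, miR-375-3p, let-7f-5p and miR-30e-3p leave out 0 before adjustment, and miR-217-5p has the widest.

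Liver miRNAs were mostly lower in ozone on the normal diet, with wide errors. Of 4 tested members of the liver list 1 was higher, and the median log2 difference was -0.52 against -0.04 over all miRNAs, with 0 called. miR-122-5p, the dominant miRNA of hepatocytes and a regulator of cholesterol metabolism, varied more among rats of a group than any other miRNA with a mean count of at least 50. It lay between 4524 and 74589 CPM in air, with a median of 25555, and between 6310 and 40968 CPM in ozone, with a median of 19410. The ozone range lay wholly inside the air range, and 5 of 6 ozone rats were at or below the air median. Its log2 difference was -0.76 (SE 0.58) on the normal diet and 1.31 (SE 0.62) on fish oil, and the difference between diets was -2.07 (SE 0.85, unadjusted p = 0.0235, adjusted p = 0.532 in edgeR). miR-192-5p and miR-194-5p, made together in liver, gut and kidney, differed by -0.36 (SE 0.26) and -0.68 (SE 0.47), against 0.57 (SE 0.27) and 0.65 (SE 0.57) on fish oil. Over the list the median on fish oil was 0.61.

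All 5 tested members of the airway and other epithelium list were lower in ozone under TMM, against 54.4% of all 136 miRNAs. Their median was -0.17 and 0 were called. With the implied read total 4 of the 5 were higher, against 83.1% of all 136. On fish oil under TMM 4 of the 5 were higher in ozone, against 47.1% of all 136, with a median of 0.84. miR-200a-3p, which represses the Zeb factors and keeps cells epithelial, lay between 895 and 2144 CPM in air (median 1449) and between 578 and 1311 CPM in ozone (median 1115), and every ozone rat was below the air median. It differed by -0.45 (SE 0.32) on the normal diet and by 0.84 (SE 0.33) on fish oil, with -1.29 (SE 0.46, unadjusted p = 0.00805, adjusted p = 0.459 in edgeR) between the diets. The tested members ranged from miR-203a-3p, at 57 to 256 counts per library and 51st of the 136 by level, through miR-200a-3p at 36 to 138 and miR-141-3p at 16 to 97 counts, to miR-205 at 3 to 22 and miR-429 at 2 to 24 counts. Of other members miR-200c-3p and the ciliated cell miRNAs miR-34c-5p and miR-449a-5p had at most 9 counts in any library and were not tested. Their raw counts summed over air and over ozone were 17 and 21, 8 and 12, and 8 and 5. Those sums were 0 and 6 for miR-183-5p and 1 and 2 for miR-200b-3p, also untested. The untested members thus did not share the direction of the 5 tested.

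Inflammatory and blood cell lists showed no common direction. In the myeloid and inflammation list 4 of 6 were higher, with a median of 0.02 and a highest member of 0.27, which was miR-223-3p of neutrophils (SE 0.35). miR-21-5p, induced in many inflamed tissues, had medians of 32858 CPM in air and 31468 CPM in ozone and a log2 difference of 0.004 (SE 0.21, 95% interval within 1.5-fold both ways). The lymphocyte list had 3 of 7 higher (median -0.03), with miR-150-5p at 0.27 (SE 0.31). Of the 11 tested members of the platelet list 5 were higher (median -0.004), among them miR-126a-3p at 0.31 (SE 0.47), and miR-22-3p was its lowest. In the erythrocyte list 3 of 8 were higher (median -0.12), with miR-451-5p at -0.34 (SE 0.49) and miR-16-5p at -0.10 (SE 0.20). With the implied read total all 6 of the myeloid list, 6 of 7 of the lymphocyte list, 10 of 11 of the platelet list and 6 of 8 of the erythrocyte list were higher. Over all 136 miRNAs 83.1% were higher with that total and 45.6% under TMM. No member of these 4 lists was called in edgeR.

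**Figure D5:**
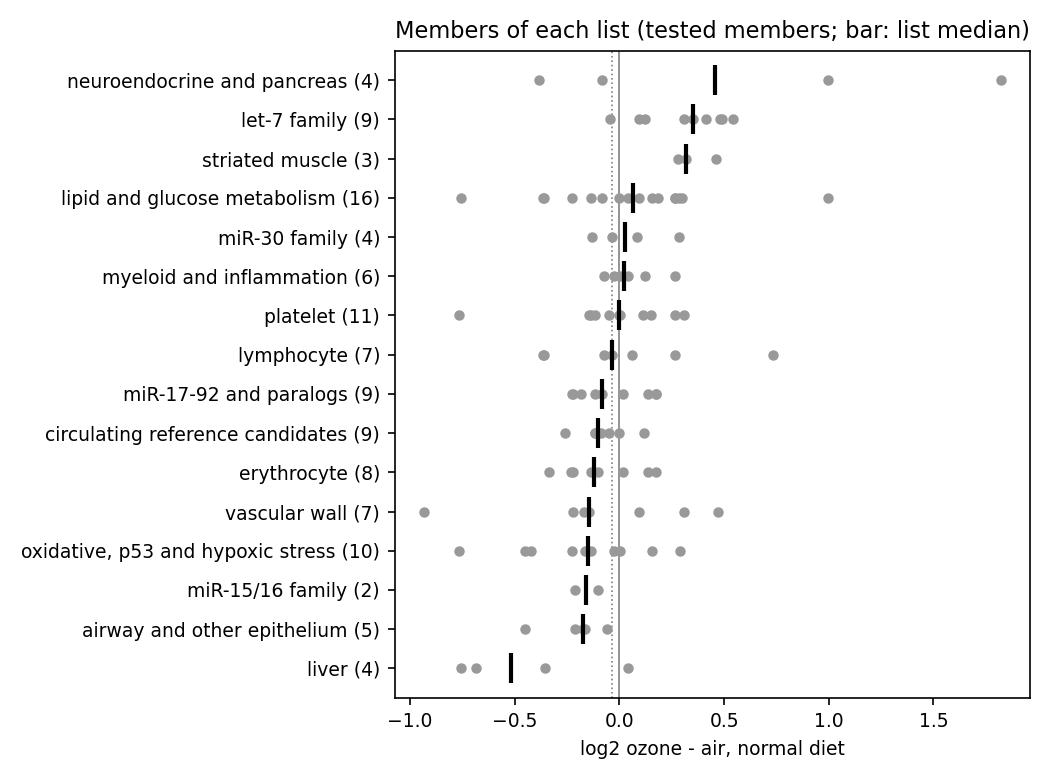
Log2 difference of ozone less air on the normal diet for the tested members of each list (points, with the number tested in brackets) and the list median (bar); the dotted line is the median of all 136 miRNAs. The let-7 members gather at 0.10 to 0.54 apart from let-7e-5p, and the members of most other lists lie on both sides of 0.

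The oxidative, p53 and hypoxic stress list had 3 of 10 higher under TMM and 6 of 10 with the implied read total, with medians of -0.15 and 0.13. Over all 136 miRNAs, 45.6% were higher under TMM and 83.1% with the implied read total, with medians of -0.04 and 0.24. The lipid and glucose list had 9 of 16 higher (median 0.07), and miR-33-5p, which lies within the cholesterol regulator gene Srebf2, differed by 0.30 (SE 0.46). The neuroendocrine and pancreas list had 2 of 4 higher, which were miR-375-3p and miR-217-5p, while the brain-enriched miR-128-3p stood at -0.09 (SE 0.26). In the vascular wall list 3 of 7 were higher (median -0.15). The 3 striated muscle miRNAs were all higher (median 0.32), but miR-1-3p was at 0 to 1900 CPM in air and 182 to 1483 CPM in ozone and differed by 0.28 with an SE of 0.72. The miR-17-92 list had 4 of 9 higher under TMM (median -0.09; miR-17-5p -0.09, SE 0.26) and 9 of 9 with the implied read total. The miR-30 list had 2 of 4 higher and the miR-15/16 list 0 of 2 under TMM, against 4 of 4 and 2 of 2 with the implied read total. Of 9 miRNAs often taken as references in serum 1 was higher under TMM, with a median of -0.10, and all 9 were higher with the implied read total, with a median of 0.20.

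The 10 most abundant miRNAs took 66.0% of the counts in air and 62.1% in ozone, and for 7 of them the log2 difference lay between -0.17 and 0.14. miR-191a-5p, plentiful in blood cells, was the most abundant at 177772 to 347737 CPM in air and 196685 to 349200 CPM in ozone, and differed by -0.05 (SE 0.29). miR-143-3p of smooth muscle differed by -0.17 (SE 0.32), miR-10a-5p by 0.14 (SE 0.35), miR-25-3p by 0.14 (SE 0.21) and miR-30a-5p by -0.13 (SE 0.23). The steadiest miRNAs among rats of a group were miR-128-3p, miR-30d-5p, miR-24-3p, miR-181c-3p and miR-181a-5p, with pooled SDs of log2 CPM of 0.16 to 0.22 and ozone differences of -0.14 to 0.09. The most variable were miR-122-5p (1.21), miR-1b (0.98), miR-320-3p (0.80), miR-101b-3p (0.75) and miR-10a-5p (0.74). miR-320-3p differed by -0.09 (SE 0.45) and miR-101b-3p by -0.48 (SE 0.35).

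The ozone difference itself was not shown to depend on diet for any miRNA. The test of the difference called 0 of 136 (0%), with 6 at an unadjusted p below 0.05 (4.41%) and a lowest adjusted p of 0.459 in edgeR. The 6 were let-7i-5p, miR-200a-3p, miR-22-3p, miR-181d-5p, miR-192-5p and miR-122-5p. For miR-22-3p the log2 difference was -0.77 on the normal diet and 0.11 (SE 0.24) on fish oil, and the gap of -0.88 (SE 0.33) had an unadjusted p of 0.0124 and an adjusted p of 0.459. miR-181d-5p, named here after its values were seen, differed by 0.31 (SE 0.23) on the normal diet and by -0.59 (SE 0.25) on fish oil. On fish oil alone edgeR called 0 of 136 (0%), with 10 at an unadjusted p below 0.05 (7.35%).

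Whole libraries did not separate by exposure. The mean distance between log2 CPM profiles was 8.97 for ozone with air and 9.03 within the groups (exact permutation test over 924 arrangements, one-sided p = 0.532). The miRNA total was 65638 ± 15675 counts in air, against 63357 ± 20129 counts for ozone (mean ± SD of 6 rats; exact permutation p = 0.758). The implied read total was 5.28e+06 ± 1.77e+06 in air, against 4.48e+06 ± 1.95e+06 for ozone (mean ± SD of 6 rats). The log2 difference of that total was -0.28 (exact permutation p = 0.431). It lay between 2243916 and 7367254, and miRNAs made up 0.848% to 2.41% of it. The 5 most abundant miRNAs took 54.3% ± 3.63 of the counts in air, against 50.4% ± 2.28 for ozone (mean ± SD of 6 rats; exact permutation p = 0.0433, and 0.260 adjusted over 6 measures); miR-22-3p is among the most abundant, and its part in that share was not tested. The log2 ratio of miR-451-5p to miR-23a-3p, a measure of red cell lysis, was -2.14 ± 0.56 in air, against -2.79 ± 1.07 for ozone (mean ± SD of 6 rats; exact permutation p = 0.221). The ratio rested on few reads of miR-451-5p, at 16 to 65 counts per library in air and 5 to 75 in ozone. Normal ozone replicates 1 and 2 held 5 and 6 of these counts and had the lowest ratios, at -4.53 and -3.31. With that ratio as a covariate edgeR gave -0.72 for miR-22-3p and 0.91 for miR-375-3p.

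The 617 names left out for low counts held few reads in the 12 libraries. The filter also used the fish oil libraries, so a name's counts in these 12 did not alone decide whether it was tested. Of these, 274 had a count in at least 1 of the 12 libraries, with a highest mean count of 12.0 for miR-31a-5p. A count was seen only in ozone for 39 of them and only in air for 45, with sums of at most 7 and 6 counts. No name was present in at least 5 of 6 rats of one group and absent from the other.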

How the data were processed

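Small RNA from 100 µl of serum per rat was isolated with a biofluids column kit including DNase, and 10 ng entered a CleanTag library, read for 50 cycles on a NextSeq 500, per the labels' protocols. The authors deposited expected counts per mature miRNA locus and RPM values. Bowtie 1.0.0, Partek, bcl2fastq and the rat build rn5 are named per the submitters' processing notes. The annotation, strand setting and treatment of reads with several matches are not stated there. The counts were read as estimates because 42 of 832 loci hold fractions (tolerance 1e-06). The deposited RPM equals the count divided by one total per library, plus 0.0001, to within 0.0205 reads; that total, not stated, is the implied read total. Columns with no matching sample numbered 0.

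Loci were summed to 753 names and rounded. The 136 names passing edgeR's filterByExpr (minimum count 10, minimum total 15), run by group over all 23 libraries, held 99.3% of the counts. With only the 12 normal diet libraries 125 names passed, and edgeR called 0 of them. All 23 libraries entered one edgeR 4.0.16 quasi-likelihood fit (robust, TMM, 1 mean per group, R 4.3.3, common biological coefficient of variation 0.367), with two-sided tests adjusted by Benjamini-Hochberg over 136. CPM are miRNA counts over the TMM-scaled miRNA total. The fitting script was checked on data of known answer. Library measures were compared by exact permutation, two-sided. Limits of 3 counts cover counting error only, since PCR copies were not told apart by molecular identifiers. Alternatives used DESeq2 1.42.0 and limma 3.58.1 (voom, and log2 RPM with pseudocounts of 1 and 10), other scalings and filters, and leaving out each library.

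The members and the 16 lists were chosen with earlier results of these data known. Named miRNAs were those called; the 10 of lowest p in each direction; the 10 most abundant; any without overlap; the 5 most and 5 least variable; and, per list, the first tested member and any with an unadjusted p below 0.05. Other miRNAs given with values, chosen outside that rule to complete a family, list or pair, were named after their values were seen. Replicate 2 of the fish oil ozone group was not used here.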

Additional observations from a re-analysis of the deposited data

Results flagged for a closer look

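Dixon's criterion flags about 1 in 20 groups by chance where values are normally spread, which was not tested here. Among 100 groups of 6 rats looked at (the named miRNAs and library measures in air and in ozone), 7 held a single rat far from the other 5 by that criterion. Normal ozone replicate 6 supplied 3 of them: miR-126a-5p of endothelium at 28465 CPM against 9842 to 13702 CPM in the other ozone rats, the neutrophil miRNA miR-223-3p at 5227 CPM against 1341 to 2051 CPM, and miR-320-3p at 2459 CPM against 8802 to 14490 CPM. Normal ozone replicate 1 supplied 2, with miR-25-3p at 31435 CPM against 24407 to 26043 CPM, and miR-222-3p at 0 CPM, a count of 0, against 60.9 to 124 CPM. In normal air replicate 4 the smooth muscle miRNA miR-143-3p was at 271247 CPM against 86735 to 129192 CPM, and miR-16-5p was at 12012 CPM against 16195 to 19140 CPM.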

How the results depend on the processing

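The count of 0 miRNAs called in edgeR became 1 with a mean count of at least 50 and 1 in DESeq2, both miR-22-3p. Leaving out 1 library gave 0 to 1. The average over both diets is a different comparison, chosen after seeing the data, and called only miR-375-3p. That call was lost in 17 of 23 repeats leaving out 1 library and in 8 of 11 other settings. The difference between diets called 0 in every setting run. Results kept their sign in most settings, with these exceptions among 44 named miRNAs, none of them called. With the implied read total, log2 differences turned to 0.24 for miR-128-3p, 0.18 for miR-143-3p, 0.22 for miR-16-5p, 0.28 for miR-17-5p, 0.25 for miR-181c-3p, 0.26 for miR-191a-5p, 0.16 for miR-24-3p, 0.23 for miR-30a-5p, 0.18 for miR-320-3p and 0.021 for miR-451-5p. With limma on RPM at pseudocounts of 1 and 10 they turned to 0.19 and 0.19 for miR-128-3p, 0.17 and 0.16 for miR-143-3p, 0.16 and 0.16 for miR-16-5p, 0.13 and 0.12 for miR-17-5p, 0.23 and 0.14 for miR-181c-3p, 0.24 and 0.24 for miR-191a-5p, 0.15 and 0.14 for miR-24-3p, 0.18 and 0.17 for miR-30a-5p, and 0.11 and 0.11 for miR-320-3p. With total count scaling they turned to 0.0095 for miR-128-3p, 0.031 for miR-17-5p, 0.050 for miR-181c-3p, 0.039 for miR-191a-5p and 0.012 for miR-320-3p. With the red cell ratio as covariate miR-16-5p turned to 0.040 and miR-451-5p to 0.13. That ratio is made from miR-451-5p itself, so the turn of miR-451-5p under it is no check of its value. miR-21-5p turned to -0.029 with DESeq2 size factors, -0.060 with a mean count of at least 50, -0.029 in DESeq2 and -0.0029 with the 12 libraries alone. The cause was not tested.

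Leaving out 1 library in turn also changed the sign of these, with ranges of -0.10 to 1.17 for miR-1-3p, -0.14 to 0.45 for miR-10a-5p, -0.0046 to 0.62 for miR-126a-3p, -0.43 to 0.098 for miR-143-3p, -0.31 to 0.025 for miR-17-5p, -0.061 to 0.12 for miR-181a-5p, -0.15 to 0.027 for miR-181c-3p, -0.24 to 0.058 for miR-191a-5p, -0.11 to 0.045 for miR-21-5p, -0.15 to 0.57 for miR-223-3p, -0.26 to 0.030 for miR-30a-5p, -0.028 to 0.14 for miR-30d-5p, -0.31 to 0.11 for miR-320-3p and -0.16 to 0.46 for miR-33-5p, and the log2 difference of the miRNA total ran from -0.21 to 0.085. That range was -0.87 to -0.63 for miR-22-3p. Without the low-count filter 440 names were tested, with 0 called and 31 at an unadjusted p below 0.05 in edgeR. No paired analysis was possible because the animal numbers pair no rats across groups. Depth limits the rarer miRNAs: 3 counts were worth 28.5 to 91.4 CPM.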
